A study of Mus musculus with 4 samples.

Results

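Intracellular calcium is bound by small proteins built around the EF-hand, a helix-loop-helix fold, and 10 genes of this kind were followed from whole prefrontal cortex to the ribosomes of a Crh-Cre population. The members were chosen by name, with earlier results of these data known. They were the buffers Calb1, Calb2 and Pvalb, the NECAB genes Necab1 and Necab2, the neuronal calcium sensors Ncald, Hpcal4 and Ncs1, and the calmodulin-like genes Caln1 and Cabp1. All 10 were among the 24100 genes of the deposited tables, each on a single row, and all 10 were among the 14636 genes tested.

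The samples came from the prefrontal cortex of untreated adult male Crh-IRES-Cre mice (Jackson 012704), which make Cre recombinase from the locus of the corticotropin-releasing hormone gene Crh. All libraries share this genotype. Polysomes tagged with EGFP were pulled down from the homogenate, a method known as translating ribosome affinity purification (TRAP). There was 1 Input library (the homogenate before capture) and there were 3 immunopurified (IP) libraries, each from 5 males. How the EGFP tag was brought into the Cre cells, and whether libraries shared animals with each other, is not given in the sources used here. The p-values therefore measure the spread between these libraries, which may be technical.

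Buffers such as calbindin, calretinin and parvalbumin shape the size and duration of calcium signals, and in cortex they have long served to tell classes of inhibitory interneurons apart. Parvalbumin marks fast-spiking basket and chandelier cells, and calretinin marks many cells that also make vasoactive intestinal peptide (Vip). Sensors of the other families bind calcium and then change shape and partners, and many of them carry an N-terminal lipid that brings them to membranes.

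Total counts were 14474529 for the Input and between 10031072 and 23548375 for IP. Levels are given in CPM, the read count normalised to the TMM-adjusted size of its library, for which 1 count was worth 0.0436 to 0.107 CPM. The gene whose locus drives Cre, Crh, measured 1.32 CPM in the Input, against 501, 174 and 193 CPM in IP 1, 2 and 3. GABAergic neuron genes were present throughout (7 of 7 listed markers above the Input in all 3 IP libraries, where 19.7% of all genes tested were, with a summed level of 787 CPM in the Input and 3704 to 4731 CPM in IP). All 6 endothelial markers also lay above the Input in each IP library, with a median log2 fold of 3.06 against 2.73 for the GABAergic markers. They summed to 31.96 CPM in the Input, against 130, 472 and 190 CPM in IP 1, 2 and 3. Called higher were 0 of the 6 endothelial and 5 of the 7 GABAergic markers, where 0.41% of all genes tested were. Of 12 markers of excitatory neurons 10 had a log2 fold below 0 (median -1.09), as did 6696 of all 14636 genes tested. Of the 12, 2 were called lower, where 0.0478% of all genes tested were. The summed level of the 12 was 5716 CPM in the Input and 3521 to 6520 CPM in IP, but most of it was Camk2a, and the other 11 came to 2814 CPM in the Input, against 931, 1544 and 1057 CPM in IP 1, 2 and 3. In such bulk samples, fewer cells of a type and less RNA per cell cannot be told apart.

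Members of the same family share sequence, so the coding sequences of 3 related pairs are shown around their longest identical stretch. They are from GENCODE M21 (GRCm38), written 5′ to 3′ on the coding strand, with bases alike in both genes of the pair in capitals. Untranslated exon sequence was not compared, so how far reads of 1 gene could be taken for those of the other was not settled. Calb1 (chromosome 4, 15881264 to 15908064, plus strand) and Calb2 (chromosome 8, 110137502 to 110168210, minus strand) were 65.6% identical over 778 aligned coding bases, and no identical run was longer than 12 bases. Coding bases 223 to 294 of Calb1 and 253 to 324 of Calb2, counted from the start codon, hold that run.
Calb1: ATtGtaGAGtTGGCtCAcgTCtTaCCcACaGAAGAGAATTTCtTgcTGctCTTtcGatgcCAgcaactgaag
Calb2: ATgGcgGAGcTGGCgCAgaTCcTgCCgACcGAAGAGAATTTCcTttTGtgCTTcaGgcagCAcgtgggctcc
Necab1 (chromosome 4, 14952245 to 15149794, minus strand) and Necab2 (chromosome 8, 119446719 to 119472640, plus strand) were 60.8% identical over 1038 bases, with a longest run of 14, within coding bases 88 to 161 of Necab1 and 199 to 272 of Necab2.
Necab1: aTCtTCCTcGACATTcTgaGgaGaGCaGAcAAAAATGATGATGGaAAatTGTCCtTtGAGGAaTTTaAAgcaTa
Necab2: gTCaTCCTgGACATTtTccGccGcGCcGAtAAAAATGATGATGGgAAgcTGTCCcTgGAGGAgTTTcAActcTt
Ncald (chromosome 15, 37366175 to 37792570, minus strand) and Hpcal4 (chromosome 4, 123183227 to 123194701, plus strand) were the most alike of all pairs of members, at 70.5% over 563 bases with a longest run of 15, within coding bases 514 to 567 of Ncald and 520 to 573 of Hpcal4.
Ncald: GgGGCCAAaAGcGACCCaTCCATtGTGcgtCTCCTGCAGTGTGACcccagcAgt
Hpcal4: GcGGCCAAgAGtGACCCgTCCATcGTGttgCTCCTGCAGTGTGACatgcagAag

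Calb2, which encodes the buffer calretinin, was the member that rose on the captured ribosomes. It measured 4.14 CPM in the Input (69 counts), against 179, 155 and 77.6 CPM in IP 1, 2 and 3 (4099, 1446 and 900 counts). All 3 IP libraries lay far above the Input, whose 95% counting interval (exact Poisson, counting error only) ran from 3.22 to 5.24 CPM. IP 3 was the lowest of the 3 IP libraries. The mean in IP was 137 ± 52.8 CPM (SD, n = 3), 33.1 times the Input. The log2 fold was 5.05 ± 0.80 (SE), with a 95% interval of 3.37 to 6.72 and an adjusted p of 0.00240 by edgeR's quasi-likelihood test with Benjamini-Hochberg adjustment over all genes tested.

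Of the 10 members 1 was called, Calb2, while 0.458% of all genes tested were called (0.41% higher and 0.0478% lower in IP). Without IP 1, 2 or 3 the log2 fold of Calb2 was 4.79, 4.95 and 5.33, with a call each time. Limma-voom gave Calb2 a similar log2 fold of 5.01 ± 1.45 but no call (adjusted p = 0.312), and the adjusted p-values of the 12 alternatives spanned 2.42e-13 to 0.312. Markers of the Vip class moved with it, as 9 of 9 lay above the Input in all 3 IP libraries, where 19.7% of all genes tested did, and 7 were called. These 9 include Crh, whose locus drives Cre. Their summed level was 122 CPM in the Input, against 7616, 4682 and 4708 CPM in IP 1, 2 and 3, and none was at 0. Such a rise was not particular to the Vip class. All 7 GABAergic neuron markers, all 6 endothelial markers and 5 of 7 Lamp5-class markers also lay above the Input in all 3 IP libraries. Of these lists 5, 0 and 2 markers were called higher. The part of any of these markers in the result was not tested.

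**Figure D1:**
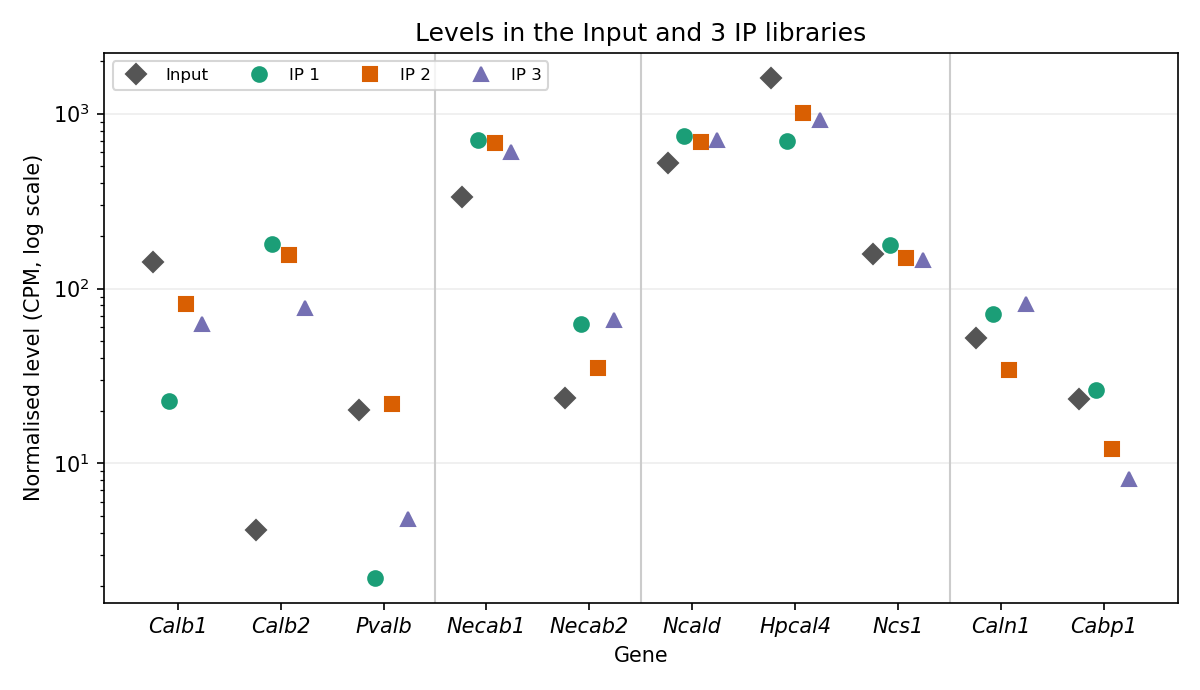
Normalised level of each gene in CPM (log axis) in the Input (diamond) and in IP 1, 2 and 3 (circle, square, triangle), 1 point per library, with vertical lines between families. Calb2 lies at 4.14 CPM in the Input and between 77.6 and 179 CPM in IP, while Hpcal4 and Calb1 are lower than the Input in every IP library.

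Calb1, which encodes calbindin-D28k, a relative of calretinin, had a lower level in each IP library. It measured 141 CPM in the Input, against 22.9, 81.8 and 62.5 CPM in IP 1, 2 and 3. The groups did not overlap, and IP 1, where Calb2 was highest, had the least. The mean in IP was 55.7 ± 30.04 CPM (SD, n = 3), and the log2 fold of -1.34 ± 0.64 (95% interval -2.68 to -0.012) did not pass (edgeR, adjusted p = 0.99995). Of the 12 excitatory neuron markers 9 were also under the Input level in every IP library, where 24.1% of all genes tested were. Among the IP libraries their summed level, like that of Calb1, was lowest in IP 1 and highest in IP 2, with or without Camk2a. With Camk2a the sum was 5716 CPM in the Input, against 3521, 6520 and 5217 CPM in IP 1, 2 and 3. Without it the sum was 2814 CPM, against 931, 1544 and 1057 CPM. This order was not particular to the excitatory list. The 6 oligodendrocyte markers summed to 683 CPM in the Input, against 318, 499 and 449 CPM, and 3 of them lay below the Input in every IP library. The part of either list in the level of Calb1 was not tested.

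Pvalb, the gene of the buffer parvalbumin (chromosome 15, 78191114 to 78206400, minus strand), had the widest spread of the members between the IP libraries. It measured 20.3 CPM in the Input (338 counts), against 2.22, 21.9 and 4.83 CPM in IP 1, 2 and 3 (51, 205 and 56 counts). IP 2 was level with the Input, their counting intervals overlapping at 18.2 to 22.5 and 19.0 to 25.1 CPM, while IP 1 and IP 3 lay below it. The highest IP library held 9.86 times the lowest, a ratio reached by 7.31% of the 10436 tested genes with a mean of at least 5 CPM in IP. The log2 fold was -1.07 ± 1.26 with a 95% interval of -3.71 to 1.56, and without IP 2 it was -2.53 ± 1.40, neither past the threshold.

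Syt2, a synaptotagmin of parvalbumin cells, ordered the libraries as Pvalb did, with 10.8 CPM in the Input, against 1.66, 20.6 and 4.66 CPM in IP 1, 2 and 3. Others of the 10 Pvalb-class markers did not, since Cox6a2 was lowest in IP 2 (18.3, 2.57 and 6.64 CPM) and Tac1 was at 2.75, 0.214 and 16.04 CPM. Summed, the 10 markers came to 490.5 CPM in the Input, against 680.4, 759 and 823 CPM in IP 1, 2 and 3, and none was at 0. Most of that sum was Kcnc1 and Kcnc2, and the other 8 came to 144 CPM in the Input, against 99.3, 137 and 119 CPM. The median log2 fold of the 10 was -0.36, with 6 folds below 0, as had 6696 of all 14636 genes tested. Of the 10, 4 lay below the Input in each IP library, where 24.1% of all genes tested did. The 6 endothelial markers also had their highest sum in IP 2 (130, 472 and 190 CPM, where the Input had 31.96 CPM). So had the markers of excitatory neurons (3521, 6520 and 5217 CPM), oligodendrocytes (318, 499 and 449 CPM) and astrocytes (254, 350 and 252 CPM). A highest sum in IP 2 was thus not particular to the endothelial list. The part of any of these lists in the level of Pvalb was not tested.

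Set per kb of exon, the 3 buffers together made up 51.0 CPM per kb in the Input, against 109, 127 and 62.1 CPM per kb in IP 1, 2 and 3. Calb1 took 57.2% of this sum in the Input, Pvalb 38.2% and Calb2 4.65%. In IP 1, 2 and 3 the share of Calb2 was 93.7%, 70.0% and 71.7%, that of Calb1 4.32%, 13.3% and 20.8%, and that of Pvalb 1.95%, 16.6% and 7.47%. Calb2 was thus the least of the 3 buffers in the Input and the most abundant in every IP library. In raw counts there were 34.2 Calb1 reads to each Calb2 read in the Input, against 7.81, 1.89 and 1.24 Calb2 reads to each Calb1 read in the IP libraries.

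**Figure D2:**
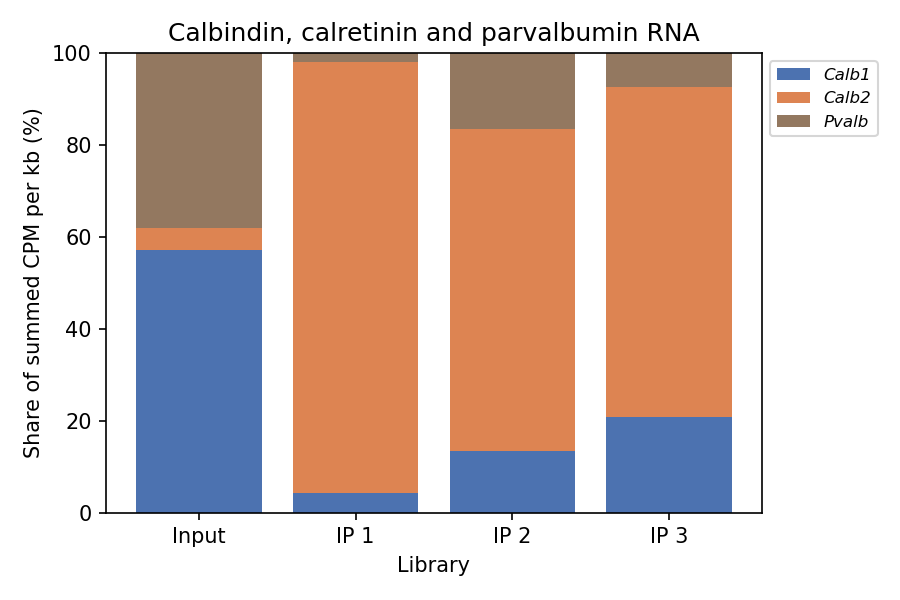
Share of Calb1, Calb2 and Pvalb in their summed level (CPM per kb of exon, in %) for each of the 4 libraries, as stacked bars from 0 to 100. Calb2 holds 4.65% in the Input and from 70.0% up to 93.7% in IP.

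Necab1 and Necab2 encode neuronal proteins with an N-terminal EF-hand and a C-terminal domain related to bacterial monooxygenases, and Necab2 is known to bind an adenosine receptor and a metabotropic glutamate receptor. Necab1 measured 333 CPM in the Input, against 710, 682 and 604 CPM in IP 1, 2 and 3. The IP libraries lay close together, all above the Input, with a mean of 665 ± 55.0 CPM (SD, n = 3). Its log2 fold of 1.0004 ± 0.38 had a 95% interval of 0.21 to 1.79, and it did not pass over all genes (edgeR, adjusted p = 0.749). A share of 7.83% of its exon bases lies over the antisense gene Gm11837, which had 4 counts in the Input.

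Necab2 measured 23.8 CPM in the Input, against 62.8, 35.2 and 66.0 CPM in IP 1, 2 and 3. It too was above the Input in each, and IP 2 was the lowest of the 3 IP libraries. The mean was 54.7 ± 17.0 CPM and the log2 fold 1.20 ± 0.79, with an interval of -0.46 to 2.86 that takes in 0. The third gene of the family, Necab3, was lower in each IP library, at 146 CPM in the Input, against 93.1, 94.8 and 137 CPM in IP (log2 fold -0.43 ± 0.50).

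Among the neuronal calcium sensors, Hpcal4, of the visinin-like branch, had the highest level of all members per kb of exon in the Input. It measured 1599.6 CPM there, against 696, 1013 and 924 CPM in IP 1, 2 and 3. All 3 IP libraries lay below the Input, with a mean of 877 ± 164 CPM (SD, n = 3). The log2 fold of -0.87 ± 0.33 had an interval of -1.55 to -0.18 and did not pass over all genes (edgeR, adjusted p = 0.746).

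Ncald, the gene of neurocalcin delta, a sensor known to bind clathrin and guanylyl cyclases, measured 523 CPM in the Input, against 745, 684 and 702 CPM in IP 1, 2 and 3. Its IP libraries were the closest together of any member, the highest at 1.09 times the lowest, and all were above the Input. The mean was 711 ± 31.2 CPM, and the log2 fold of 0.44 ± 0.36 had an interval of -0.30 to 1.19. Hpcal4 had 3.06 reads to each Ncald read in the Input, against 0.934, 1.48 and 1.31 in IP 1, 2 and 3. In 7.38% of the exon bases of Ncald another gene model is annotated.

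Ncs1, the gene of neuronal calcium sensor 1, which is known to bind phosphatidylinositol 4-kinase and the dopamine D2 receptor, measured 158 CPM in the Input, against 176, 150 and 145 CPM in IP 1, 2 and 3. The Input fell within the range of the IP libraries, whose mean was 157 ± 16.9 CPM (SD, n = 3). The log2 fold of -0.012 ± 0.46 had an interval of -0.98 to 0.96, which takes in differences of nearly 2-fold in either direction. Its locus is on chromosome 2, 31245823 to 31295989, plus strand.

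Caln1 (chromosome 5, 130369455 to 130847412, plus strand) and Cabp1 (chromosome 5, 115168689 to 115194381, minus strand) belong to a branch of calcium sensors related to calmodulin. Caln1 encodes calneuron 1, a protein anchored in Golgi membranes, and measured 52.3 CPM in the Input, against 71.96, 34.0 and 81.2 CPM in IP 1, 2 and 3. IP 2 lay below the Input and the others above it (log2 fold 0.25 ± 0.70, interval -1.21 to 1.72), and the sign turned with library totals alone (-0.013). Cabp1, whose products include caldendrin and which is known to regulate voltage-gated calcium channels and the IP3 receptor, measured 23.2 CPM in the Input, against 26.3, 12.1 and 8.10 CPM in IP 1, 2 and 3. IP 1 lay above the Input and IP 2 and IP 3 below it (log2 fold -0.58 ± 1.03, interval -2.74 to 1.58), and without IP 1 the log2 fold was -1.22, not called. Counts per gene do not separate the splice forms of Cabp1.

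**Figure D3:**
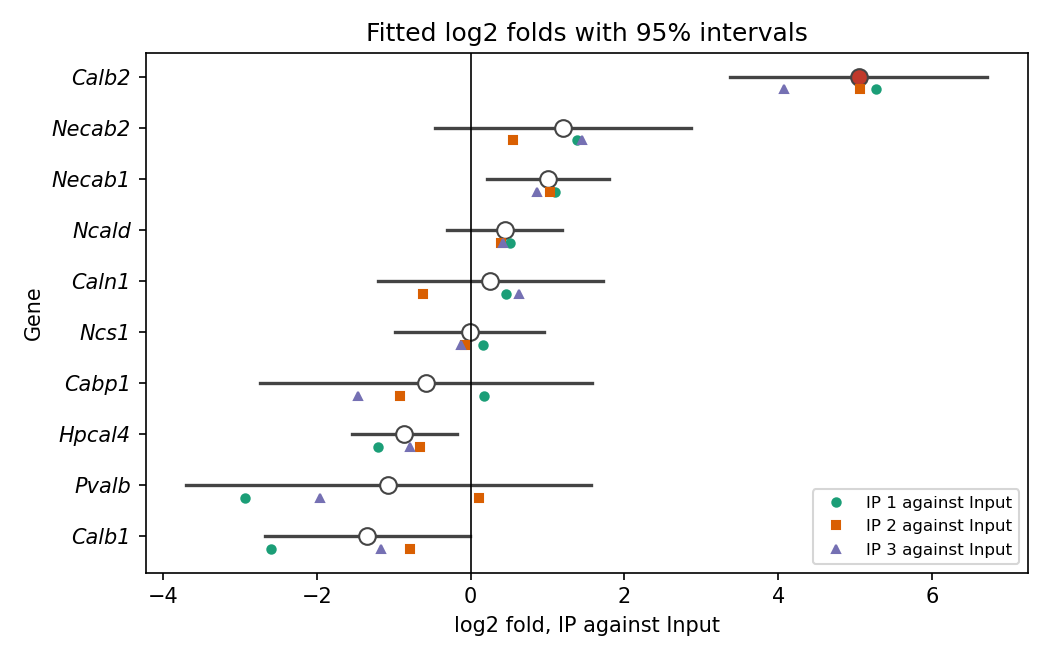
Fitted log2 fold of IP against Input for each gene (large circles, filled where called) with its 95% interval (line), and below it the log2 ratio of each IP library to the Input with 0.5 CPM added (small symbols). Calb2 stands at 5.05, and the other folds lie between -1.34 and 1.20.

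Over the 10 members, 5 folds lay above 0 and 5 below (4 above with library totals alone), with a median of 0.12 against 0.083 over all genes tested. In all 3 IP libraries 4 members (Calb2, Necab1, Necab2 and Ncald) lay above the Input and 2 (Calb1 and Hpcal4) below it, where 19.7% and 24.1% of all genes tested did so. At an unadjusted p under 0.05 there were 4 of 10 members (Calb1, Calb2, Necab1 and Hpcal4), against 4.43% of all genes tested. The members were chosen with earlier results of these data known, so these shares are not a test of the family. With library totals alone the median fold of all genes moved from 0.083 to -0.19 and with upper-quartile factors to -0.13, and that of the members to -0.15 and -0.092.

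Per kb of exon the order in IP was led by Hpcal4 (164 ± 30.7 CPM per kb, SD, n = 3), Necab1 (127 ± 10.5), Ncald (82.8 ± 3.63) and Calb2 (78.6 ± 30.3). The ranges of Hpcal4 and Necab1 overlapped, as did those of Ncald and Calb2, while Necab1 lay above Ncald in all 3 IP libraries without overlap. Calb2 lay above Ncs1 in each IP library. Ncs1 (33.8 ± 3.62) and Necab2 (26.1 ± 8.09) followed with overlapping ranges. With lower means, Calb1 (11.5 ± 6.20), Pvalb (9.28 ± 10.3), Caln1 (5.95 ± 2.39) and Cabp1 (2.66 ± 1.64) each overlapped with the next. The ranges of Necab2 and Calb1 overlapped too. In IP 2 Calb1 (16.88 CPM per kb) and Pvalb (21.06) lay above Necab2 (16.78). In the Input the order was Hpcal4 (299.6 CPM per kb), Necab1 (63.5), Ncald (60.9), Ncs1 (34.1), Calb1 (29.2), Pvalb (19.5), Necab2 (11.4), Caln1 (4.99), Cabp1 (3.98) and Calb2 (2.37). Calb2 thus moved from the last place to the fourth, and no other member moved by more than 2 places.

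The genes whose 3 log2 ratios of IP to Input lay nearest to those of Calb2 were Cxcl14, a chemokine gene, Igf1, a growth factor gene, and Irf4, a transcription factor gene. Likeness was the Euclidean distance over the 3 IP libraries, which share the Input. The distances were 0.619 for Cxcl14, 1.01 for Igf1 and 1.03 for Irf4, among genes with at least 5 CPM in the higher group. Cxcl14 measured 20.9 CPM in the Input, against 900.2, 528 and 481 CPM in IP 1, 2 and 3. Like Calb2 it was highest in IP 1 and lowest in IP 3, but it was picked for likeness over these same libraries. Cxcl14 and Igf1 are also among the 9 Vip-class markers set beside Calb2 above.

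Other genes of calcium binding and handling were taken as 9 lists of 96 genes, of which 87 were tested. Of these, 2 rose (Kcnip1 and Pcp4l1) and 1 fell (Nrgn), a share of 3.45% against 0.458% of all genes tested, with a median log2 fold of 0.098 against 0.083. The lists too were chosen with earlier results of these data known, so this share is not a test of them. Without IP 1 the count was 8, with Vsnl1 and Slc24a3 also higher and Camk2n1 and Ppp3r1 among those also lower.

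Among other neuronal calcium sensors 1 of 8 tested rose, Kcnip1, a calcium-binding subunit of A-type potassium channels. It measured 36.8 CPM in the Input, against 434, 224 and 253 CPM in IP 1, 2 and 3, all far above the Input (log2 fold 3.05 ± 0.56, edgeR adjusted p = 0.0105). Its call ended with limma-voom (adjusted p = 0.0775). Vsnl1, the gene of visinin-like protein 1 and the most abundant of the list, measured 3385 CPM in the Input, against 8389, 5768 and 7067 CPM in IP, with each IP library above the Input (log2 fold 1.06 ± 0.30, adjusted p = 0.237 by edgeR and 0.0118 by limma-voom). Hpca, the gene of hippocalcin, was at 554 CPM and at 354, 633 and 389 CPM, on both sides of the Input. The median of this list was -0.31.

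Of the calmodulin genes and small calmodulin-binding proteins 1 of 9 tested rose and 1 fell, with a median log2 fold of -0.30. Pcp4l1, a relative of the calmodulin regulator Pcp4, measured 70.9 CPM in the Input, against 549.6, 519 and 524 CPM in IP 1, 2 and 3 (log2 fold 2.90 ± 0.45, edgeR adjusted p = 0.00206), and the 3 IP libraries nearly coincided. Nrgn, the gene of neurogranin, which binds calmodulin in excitatory neurons, was at 616 CPM and at 132, 194 and 103 CPM, all below the Input (log2 fold -2.11 ± 0.40, adjusted p = 0.0141). Camk2n1, an inhibitor of CaM kinase II, was at 2942 CPM and at 2041, 1832 and 1037 CPM (log2 fold -0.85 ± 0.34, not called). It lay below the Input in each IP library.

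**Figure D4:**
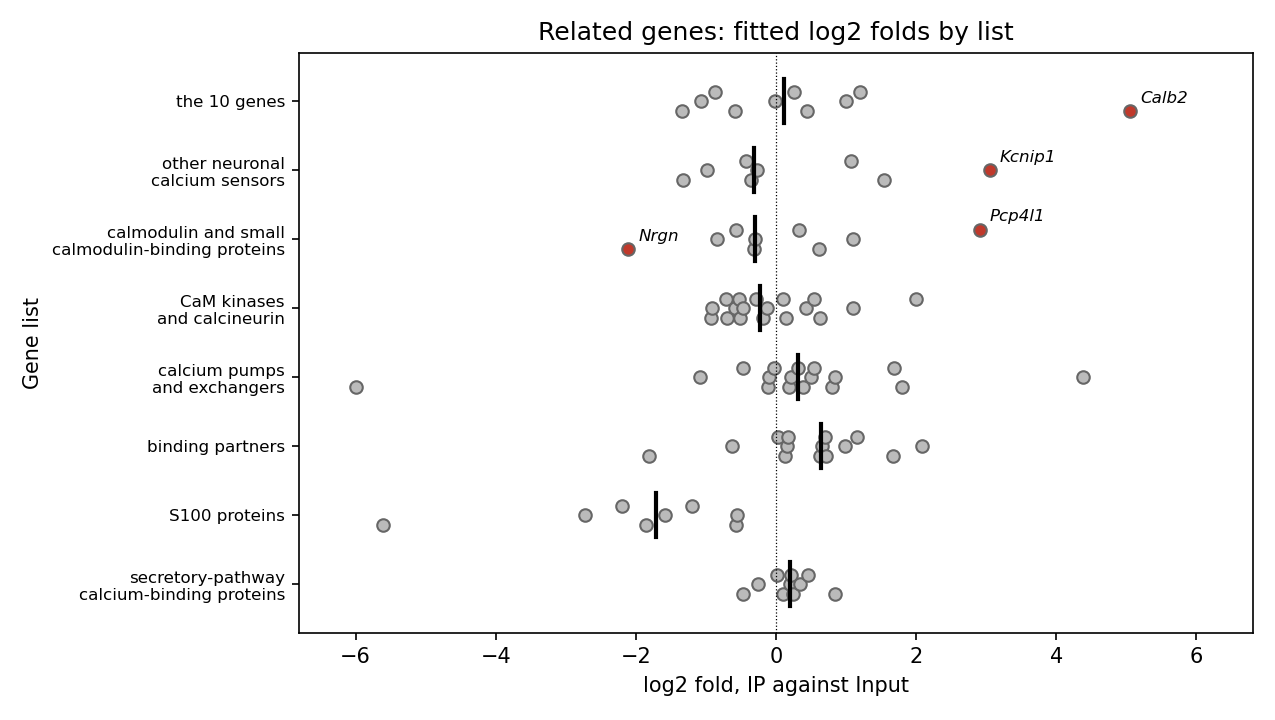
Fitted log2 folds of IP against Input for the 10 genes and for 7 lists of related genes, 1 point per tested gene (filled red and named where called) with a bar at the list's median. Calb2, Kcnip1 and Pcp4l1 lie at 5.05, 3.05 and 2.90 and Nrgn at -2.11.

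No gene passed in the other lists by edgeR. For 18 CaM kinase and calcineurin genes the median log2 fold was -0.23 (0 called, 2 at an unadjusted p under 0.05, where 4.43% of all genes tested were). Camk2a, the alpha subunit of CaM kinase II, measured 2902 CPM in the Input, against 2590, 4976 and 4160 CPM in IP. Ppp3ca, a catalytic subunit of calcineurin, measured 1173 CPM, against 880.4, 739 and 724 CPM, lower in each. For 17 pumps and exchangers the median was 0.31 (0 called, 1 at an unadjusted p under 0.05), and 8 of the 17 had a higher level in each IP library than in the Input, against 19.7% of all genes tested. The list's median was 0.035 with library totals alone and 0.092 with upper-quartile factors. The exchanger gene Slc24a2 measured 1158 CPM in the Input, against 1445, 1942 and 1504 CPM in IP. The plasma membrane pump gene Atp2b2 measured 1084 CPM, against 1266, 1558 and 1210.02 CPM. Both were higher in each IP library without a call. DESeq2 called 1 gene of the lists in which edgeR called none, the exchanger gene Slc24a3, and limma-voom 0.

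Of 14 known or proposed binding partners of the members 12 had a fold above 0, as had 7940 of all 14636 genes tested. The median of the 14 was 0.64, with 0 called and 0 at an unadjusted p under 0.05. Only 8 of the 14 lay above 0 with library totals alone or with upper-quartile factors. The IP3 receptor gene Itpr1 measured 846 CPM in the Input, against 618, 1043 and 926 CPM in IP, on both sides of the Input. Cltc, the clathrin heavy chain, measured 389 CPM, against 669.6, 679 and 566 CPM. All 8 S100 genes, which encode a separate family of small EF-hand proteins, had a fold below 0, as did 6696 of all 14636 genes tested. The median of the 8 was -1.72, with 0 called and 2 at an unadjusted p under 0.05 by edgeR. Only 5 of them lay below the Input in each IP library, where 24.1% of all genes tested did. S100a4 was near the limit of detection, with 11 counts in the Input and 5 over the IP libraries. The 8 folds were below 0 also with RLE factors, upper-quartile factors and library totals alone, although S100a1 reached 0.020 with an IP library left out. S100b, made largely by astrocytes in cortex, measured 60.1 CPM in the Input, against 25.6, 5.45 and 8.02 CPM in IP. All 6 astrocyte markers were likewise lower than the Input in each IP library, where 24.1% of all genes tested were, with 0 called. Aqp4 was nearly level in IP 1 and 2, with 57.4 CPM in the Input, against 57.0, 54.4 and 6.38 CPM in IP. The summed level of the 6 was 501 CPM in the Input, against 254, 350 and 252 CPM in IP 1, 2 and 3. It was thus highest of the IP libraries in IP 2, where S100b was lowest. Of 6 microglial markers 5, and of 6 oligodendrocyte markers 3, also lay below the Input in each IP library. The part of these markers in the level of S100b was not tested.

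The 10 tested calcium-binding genes of the secretory pathway had a median of 0.20 (0 called, 0 at an unadjusted p under 0.05), which turned to -0.069 with library totals alone and -0.013 with upper-quartile factors. Hsp90b1, a chaperone of the endoplasmic reticulum, measured 233 CPM in the Input, against 357, 214 and 315 CPM in IP. Sdf4, which encodes a calcium-binding protein of the Golgi lumen, measured 201 CPM, against 214, 275 and 223 CPM. Further relatives of the members were near the limit of detection. Scgn, the gene of secretagogin, a relative of Calb1 and Calb2, had 0 counts in the Input, which allows up to 0.180 CPM, and 28 counts over the IP libraries (0.349, 0.321 and 1.47 CPM), at least 3.96-fold higher on average than that limit and not called. Cabp7, the second calneuron gene, measured 1.26 CPM in the Input, against 0.0436, 0 and 0 CPM in IP 1, 2 and 3. Cabp4 measured 0.600 CPM, against 0, 0 and 1.47 CPM.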

How the data were processed

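RNA of 1 Input and 3 IP libraries was sequenced. Per the file headers, each deposited table held 1 library's raw counts, with Entrez identifiers and symbols. STAR 2.0.0e, HTSeq and mm10 stand in the submitters' processing notes. The tables' names also hold the word subread, so the counter is not settled, and annotation and strand of counting are not given in the sources used here.

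Genes were kept by filterByExpr (minimum count 10) in edgeR 4.0.16 under R 4.3.3 and scaled by TMM. IP was compared with Input by edgeR's two-sided quasi-likelihood F test, Benjamini-Hochberg adjusted over the 14636 genes kept, at a threshold of 0.05. The lone Input gave no spread, so it was taken to vary as the 3 IP libraries did (residual degrees of freedom 2, prior 17.0). The SE of a log2 fold was its size over the root of F. The 9 genes without a symbol held at most 0.0221% of counts. The script was tested on simulated data with less spread between libraries than these data had, so the test does not show how it performs at their spread.

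Coordinates and exon lengths are from GENCODE M21 (GRCm38, the mm10 assembly), where all 10 Entrez identifiers matched; the authors' gene lengths may differ. Genes named were the members, the called and the 2 most abundant other genes of each list, the 3 genes nearest to a called member, Crh, and markers set beside a member. One gene that this rule names is not reported here. Necab3, Slc24a3 and Ppp3r1 were named after their values were seen, and so were Syt2, Cox6a2, Tac1, Kcnc1 and Kcnc2 out of their list. The members and lists were chosen with earlier results of these data known. Alternatives used DESeq2 1.42.0 and limma 3.58.1 (voom), other scalings and filters, a robust prior, a stricter threshold and the omission of each IP library.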

Additional observations from a re-analysis of the deposited data

How the results depend on the processing

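Among 12 alternatives, the count of called members was 1 in all but limma-voom, where it was 0 (edgeR: 1; members at an unadjusted p under 0.05 by edgeR: 4). The count of all genes called was 67, and it was 108 without a low-count filter, 181 with DESeq2 and 39 at an adjusted p under 0.01. Without 1 IP library it ran from 90 to 210, the latter without IP 1. Related genes called were 3, and 1 at an adjusted p under 0.01, and 3 to 8 with an IP library left out. Of the called genes, 89.6% were higher in IP, against 76.9% with library totals alone, 77.3% with upper-quartile factors and 72.5% with limma-voom.

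Signs turned for small folds that were not called. Caln1 was at -0.013 and Sdf4 at -0.037 with library totals alone. Ncs1 was at 0.011 with limma-voom and ran from -0.12 to 0.043 with an IP library left out. Itpr1 was at -0.19 with upper-quartile factors, -0.25 with library totals, -0.078 with a mean of at least 5 CPM, -0.087 with limma-voom and -0.13 to 0.20 with an IP library left out. Cabp4 was at 0.28 without IP 1 and 0.26 without IP 2, and S100a1 ran from -5.80 (without IP 1) to 0.020. The cause was not tested.

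No paired analysis was possible because there was 1 Input and its label carries no number. With a lone Input and a biological coefficient of variation of 0.787, the 95% intervals of the log2 folds of members other than Calb2 were 1.36 (Hpcal4) to 5.27 (Pvalb) wide.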
